A study of Mus musculus with 12 samples.

Results

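The integrin chains Itga1, Itga2, Itga5, Itga10, Itga11, Itgav, Itgb1, Itgb5 and Itgb8 and the integrin-related gene Itgbl1 were followed in primary chondrocytes treated with dexamethasone (DEX), a synthetic glucocorticoid. The 10 genes were given by name, and their probe sets were found through the gene symbols of the array platform's annotation, among 18194 named genes. For 9 of them the annotation used here listed 25 of the 45101 probe sets, and Itga11 was not analysed here. Primary chondrocytes came from tibiae, femurs and humeri of CD1 mouse embryos at E15.5, and were grown as monolayers, with no sorting of cell types named in the methods. They were treated with 100 nM DEX or with DMSO (vehicle) for 6 or 24 hrs, in medium that held serum, ascorbic acid and beta-glycerophosphate in all 4 groups. Each group had 3 Affymetrix mouse arrays, numbered as replicates 1, 2 and 4. The methods name independent cell isolations.

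Integrins are receptors in the cell membrane that consist of an alpha and a beta chain and tie the cell to the matrix around it. In cartilage, Itga1, Itga2, Itga10 and Itga11 each pair with Itgb1 to form the collagen receptors. That with Itga10, which binds collagen II, is the one most tied to cartilage. Itga5 with Itgb1 forms the classical fibronectin receptor, and Itgav pairs with several beta chains, Itgb5 and Itgb8 among them, to bind proteins such as vitronectin and latent TGF-beta. Itgbl1 encodes a secreted protein that resembles the cysteine-rich repeats of a beta chain but has no membrane anchor.

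Intensities were deposited on a linear scale after GC-RMA, which subtracts background. Of the 25 probe sets, 16 reached a group mean of 50 in any group and were tested, covering all 9 measured genes, while the other 9 stayed below it. Each gene is given by its tested probe set of highest mean, and no level is compared between probe sets. One limma fit over 20897 probe sets used all 12 arrays. Fold changes are DEX over vehicle, SE is limma's moderated error and FDR is its p adjusted by the Benjamini-Hochberg method across the whole table. DEX and vehicle arrays that share a replicate number and a time form a pair, 6 in all. Hybridization took 4 days, each balanced for DEX and vehicle but holding a single time, and so day and time cannot be told apart. The 4 arrays of day 3, both treatments of replicates 1 and 2 at 6 hrs, stood apart. Their Gapdh control, a measure of RNA integrity, had a 3′ over 5′ log2 ratio between 0.49 and 0.74, against -0.33 to -0.22 on the other 8. Of the chondrocyte markers listed, 20 of 20 with a probe set passed the intensity minimum. For other cell types, 9 of 18 macrophage, 5 of 12 endothelial, 13 of 18 skeletal muscle and 16 of 17 tendon and perichondrial fibroblast markers passed it. Arrays of a mixed culture cannot tell fewer cells of a type from less RNA per cell.

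The 3 genes that passed the test over both times were Itga10 and Itgbl1, which rose with DEX, and Itgb8, which fell. Their promoter sequences, taken from RefSeq with the mouse build GRCm38.p6, are shown because these genes passed that test, which was run without a block. Itga10 lies on chromosome 3, from 96645584 to 96664519. Its 250 bases before the start (chr3:96645334-96645583, plus strand) hold none of the motifs searched and are printed without capitals. Itgb8 lies on chromosome 12, from 119162803 to 119238276, and its 250 bases before the start (chr12:119238277-119238526, minus strand) hold 1 CCAAT box, in capitals, which begins 126 bases before the start. Itgbl1 lies on chromosome 14, from 123659937 to 123978865. Its RefSeq promoter window overlaps the annotated gene, being taken from a start at 123660140, so only the 47 bases outside the gene (chr14:123659890-123659936, plus strand) are printed. They hold a CCAAT box, in capitals, which begins 12 bases before the gene's first base and 215 before the start of the window's entry.
Itga10: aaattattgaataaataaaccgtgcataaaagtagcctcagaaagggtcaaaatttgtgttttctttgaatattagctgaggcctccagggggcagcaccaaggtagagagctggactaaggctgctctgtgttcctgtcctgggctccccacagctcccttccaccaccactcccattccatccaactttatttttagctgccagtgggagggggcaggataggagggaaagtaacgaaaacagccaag
Itgb8: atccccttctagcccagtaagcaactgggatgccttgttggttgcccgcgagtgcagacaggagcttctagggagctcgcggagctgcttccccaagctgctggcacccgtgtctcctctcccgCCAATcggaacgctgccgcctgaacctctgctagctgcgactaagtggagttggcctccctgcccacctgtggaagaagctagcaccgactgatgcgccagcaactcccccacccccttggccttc
Itgbl1: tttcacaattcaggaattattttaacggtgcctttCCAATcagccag

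All 10 genes had a promoter entry, and both strands of the 250 bases before the start of each entry were searched. In 8 genes that start is the first base of the annotated gene. The Itgav window, by contrast, lies wholly inside the gene, before a start at 83724397, and 203 of the 250 bases of the Itgbl1 window do. The glucocorticoid response element, to which the activated receptor binds as a dimer, was searched as AGAACA or GGTACA followed by any 3 bases and TGTTCT, and neither spelling was found in any of the 10 windows. Of 32851 RefSeq promoters of the same length, 3 (0.00913%) held the first spelling and 0 the second. The right arm alone, TGTTCT, which both longer motifs contain, was present in 2 of the 10, Itga2 (201 bases before the start) and Itgb1 (245 bases), against 16.1% of all promoters. CCAAT was present in the Itgb8 and Itgbl1 windows and in 33.9% of all promoters. The GC box GGGCGG was found in Itga5, Itgb1, Itgb5 and the part of the Itgbl1 window inside the gene, against 32.7% of all. The AP-1 motif TGANTCA (6.75% of all) and the TATA box TATAAA (12.4%) were in none of the 10 windows. A match is only a match of letters, and a window without one says nothing of binding elsewhere.

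**Figure D1:**
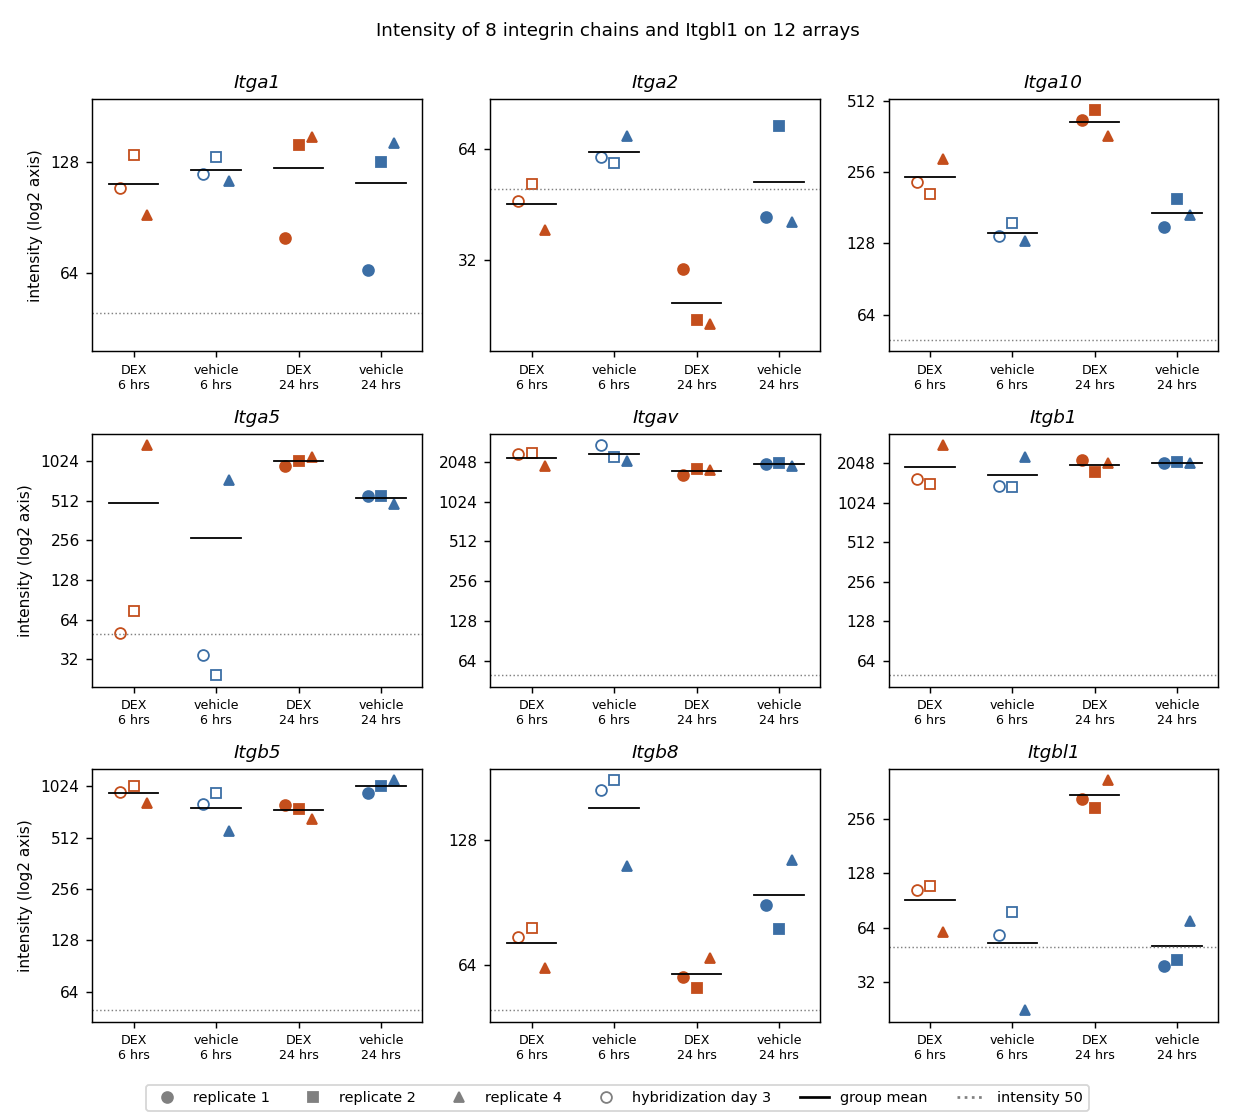
GC-RMA intensity (log2 axis, scaled per gene) of 8 integrin chains and Itgbl1 on each of the 12 arrays, in the groups DEX and vehicle at 6 and at 24 hrs; marker shape is the replicate number, open markers are the arrays of hybridization day 3, bars are means of the linear intensities of 3 arrays and the dotted line is an intensity of 50. Itga10 lies higher and Itgb8 lower with DEX at both times, the Itgbl1 arrays separate at 24 hrs, and the day 3 arrays of Itga5 lie at 24.3 to 74.0.

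Itgbl1 had the largest fold change of the 9 genes. At 24 hrs its intensity was 328, 294 and 416 with DEX (replicates 1, 2 and 4), against 39.5, 42.6 and 69.6 in vehicle. The lowest DEX array was thus well above the highest vehicle array, and the fold change was 6.99 (log2 2.81, SE 0.43, FDR = 0.0242). At 6 hrs the intensities were 103, 109 and 60.5 with DEX and 58.6, 77.7 and 22.5 in vehicle. The 2 groups overlapped at 6 hrs, although DEX was higher in 3 of 3 pairs, and the log2 fold change of 0.91 (SE 0.43, FDR = 1.00) did not pass the test. The effect at 24 hrs exceeded that at 6 hrs by 1.90 on the log2 scale (SE 0.60, unadjusted p = 0.00949, adjusted p = 1.00 in limma), which did not pass. Of all tested probe sets, 0 passed this test of the difference (0.00%), and 3.63% had an unadjusted p under 0.05.

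The vehicle arrays of Itgbl1 lay around the minimum of 50, from 22.5 to 77.7, averaging 52.9 ± 28.1 at 6 hrs and 50.6 ± 16.5 at 24 hrs (SD, n = 3 each), so the size of the fold change depends on low signals. Over both times the gene rose by 1.86 on the log2 scale (SE 0.30, FDR = 0.0166), and DEX was higher in 6 of 6 pairs. The test at 24 hrs did not pass when any one of DEX 24 hrs replicates 1, 2 and 4 or vehicle 24 hrs replicates 1 and 2 was left out (FDR = 0.0906 to 0.144), and that over both times did not pass without replicate 2 of DEX at 6 hrs, replicate 1 or 4 of DEX at 24 hrs, or replicate 1 or 2 of vehicle at 24 hrs (FDR = 0.0518 to 0.0649). With no intensity minimum, where all 45101 probe sets were tested, neither call held (FDR = 0.0936 at 24 hrs and 0.0678 over both times). These fits had no block. Both calls held blocking on day (FDR = 0.000621 at 24 hrs and 0.000332 over both times) and on pairs (0.00125 and 0.000695). With quantile normalization and no block they also held (0.0188 and 0.0213).

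The genes whose pattern was most like that of Itgbl1 were Omd, a keratan sulfate proteoglycan of bone (r = 0.986), Tnni2, a troponin of fast muscle (0.979), Igfbp2, a binding protein of insulin-like growth factors (0.977), Serinc5 (0.974) and Ptgis, the prostacyclin synthase (0.973). The measure is Pearson's r over 12 arrays of log2 intensity less the mean of its hybridization day, a description that holds the DEX effect itself and is given without a p. Among the integrin chains the same measure was 0.955 for Itga10, 0.776 for Itga5, -0.887 for Itga2 and -0.750 for Itgav. It was -0.654 for Itgb8, -0.468 for Itgb5, 0.266 for Itga1 and 0.035 for Itgb1.

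Of the alpha chains of collagen receptors, Itga10 rose. At 24 hrs it had intensities of 423, 467 and 362 with DEX, against 150.3, 197 and 169 in vehicle. At 6 hrs the values were 233, 207 and 289.8 with DEX and 138, 157 and 131 in vehicle. The DEX arrays lay above all vehicle arrays at each time. The fold change at 24 hrs was 2.43 (log2 1.28, SE 0.18, FDR = 0.0177). At 6 hrs it was 1.70 (log2 0.77, SE 0.18, FDR = 0.277), which did not pass without a block, and the FDR was 0.0488 blocking on day but 0.105 blocking on pairs (0.0488 to 1.00 over the settings tried). Over both times the log2 fold change was 1.02 (SE 0.13, FDR = 0.00356), and this call held without each of the 12 arrays in turn (FDR = 0.00595 to 0.0166). The call at 24 hrs did not pass when DEX 24 hrs replicate 1, 2 or 4 was left out, nor without replicate 1 or 4 of vehicle at 24 hrs (FDR = 0.0605 to 0.115), nor with no intensity minimum (0.101). These fits had no block, and the call at 24 hrs held blocking on day (FDR = 0.00254) and on pairs (0.0121).

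Itga2, the alpha chain of another collagen receptor, went the other way and did not pass the test. It lies on chromosome 13, from 114833081 to 114932100. At 24 hrs its intensities were 30.2, 22.0 and 21.4 with DEX and 41.8, 74.0 and 40.5 in vehicle. At 6 hrs they were 46.2, 51.5 and 38.6 with DEX, against 60.7, 58.8 and 69.4 in vehicle. Each DEX array lay below each vehicle array of its time, although most of these values lay near or below the intensity minimum of 50. The gene reached that minimum only through its vehicle groups, with means of 62.9 at 6 hrs and 52.1 at 24 hrs. With DEX the means were 45.4 and 24.5, so the separation is not independent of the filter. On the log2 scale DEX minus vehicle was -0.48 at 6 hrs (SE 0.25, FDR = 1.00), -1.05 at 24 hrs (SE 0.25, FDR = 0.181) and -0.76 over both times (SE 0.17, FDR = 0.106). Over both times the FDR was 0.0361 blocking on day and 0.0655 blocking on pairs, in a range of 0.0361 to 0.866 over the settings tried.

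Itga1, the alpha chain of a receptor that prefers collagen IV, lies on chromosome 13, from 114958079 to 115101964. Its intensities at 24 hrs were 79.6, 142 and 149 with DEX and 65.3, 128 and 145 in vehicle. At 6 hrs they were 109, 134 and 92.0 with DEX and 119, 132 and 114 in vehicle. The groups overlapped at both times, the spread at 24 hrs lay between replicate 1 and the others in both treatments, and the log2 fold change over both times was 0.010 (95% confidence interval -0.49 to 0.51, FDR = 1.00).

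Itga5, the alpha chain of the fibronectin receptor, lies on chromosome 15, from 103344286 to 103366791, and differed most of the 9 genes between the day 3 arrays and the others. At 24 hrs its intensities were 928, 1025 and 1088 with DEX, against 552, 559 and 483 in vehicle. At 6 hrs replicate 4 gave 1341 with DEX and 735 in vehicle, both above the 24 hrs arrays of the same treatment. The day 3 arrays at 6 hrs gave only 50.4 and 74.0 with DEX and 34.8 and 24.3 in vehicle for replicates 1 and 2. Within each of the 6 pairs DEX was higher, by 0.54 to 1.61 on the log2 scale.

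The log2 difference of the day 3 arrays from the other 8 was -4.23 for Itga5, at percentile 0.297 of all tested probe sets, whose median difference was -0.10. It was -3.62 for the second tested Itga5 probe set and -1.77 for the second of Itgav, but 0.36 for the brightest of Itgav. The Gapdh ratio of these arrays is given above, and its part in the Itga5 level was not tested.

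Without a block the spread between the 6 hrs replicates entered the error of Itga5, and DEX minus vehicle over both times was 0.97 on the log2 scale (SE 0.93, FDR = 1.00). Blocking on day the SE was 0.13 and FDR = 0.00320, and blocking on pairs FDR = 0.0141 (0.00320 to 1.00 over the settings tried). At single times the day block gave 0.0383 (6 hrs) and 0.0331 (24 hrs), and the pair block 0.0955 and 0.0665 in the same order. Without the 4 arrays of day 3, an omission chosen after the data were seen, the log2 fold change over both times was 0.90 (FDR = 0.0302). The second probe set of the gene was higher with DEX in 5 of 6 pairs, and its log2 difference over both times was 0.72 (SE 0.79, FDR = 1.00, and 0.0644 blocking on day).

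**Figure D2:**
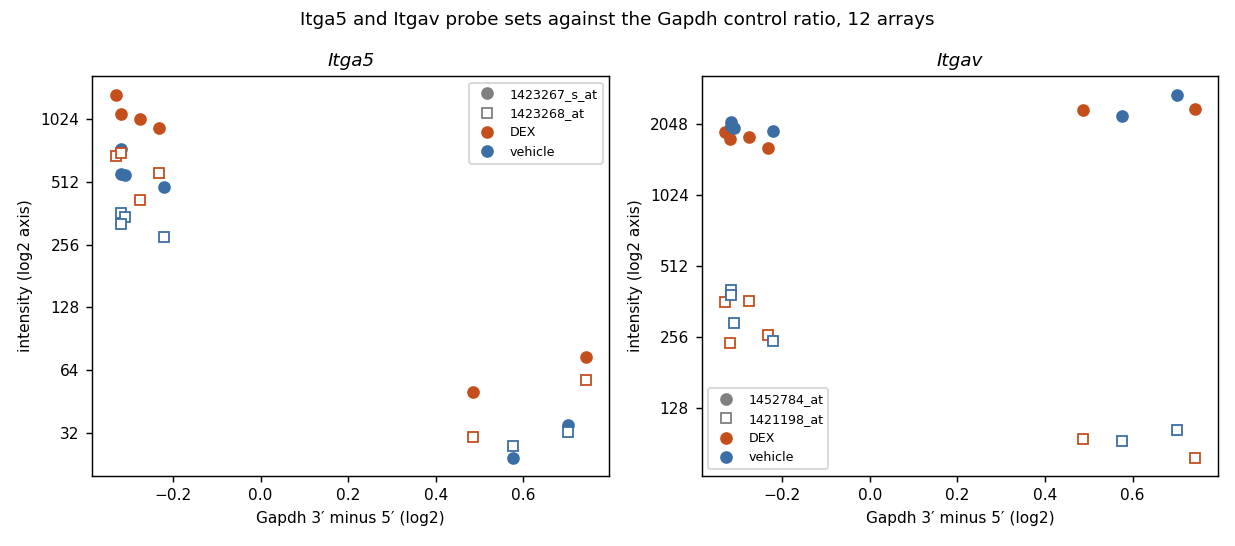
Intensity (log2 axis) of 2 probe sets each of Itga5 and Itgav on the 12 arrays against the Gapdh control's 3′ over 5′ log2 ratio; colour is DEX or vehicle, and filled circles and open squares are the 2 probe sets. The 4 arrays of hybridization day 3 lie at 0.49 to 0.74 on the x axis, where both Itga5 probe sets and 1 of the 2 Itgav probe sets are lower than on the other 8 arrays.

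Itgav, the alpha chain shared by several receptors for vitronectin and latent TGF-beta, changed little. It lies on chromosome 2, from 83722303 to 83806917. At 24 hrs its intensities were 1626, 1813 and 1769 with DEX and 1971, 2004 and 1918 in vehicle. At 6 hrs they were 2341, 2373 and 1901 with DEX and 2729, 2214 and 2080.0 in vehicle. The groups separated at 24 hrs and overlapped at 6 hrs, with a log2 difference of -0.18 at 24 hrs (SE 0.16, FDR = 1.00) and -0.084 at 6 hrs (SE 0.16, FDR = 1.00).

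Among the beta chains, Itgb8, which pairs with Itgav in a receptor that activates latent TGF-beta, fell over both times. At 6 hrs its intensities were 74.97, 78.8 and 62.9 with DEX, against 168, 177 and 111 in vehicle. At 24 hrs they were 60.0, 56.5 and 66.8 with DEX and 89.4, 78.4 and 115 in vehicle. The groups did not overlap at either time, and DEX was lower in 6 of 6 pairs. The log2 fold change over both times was -0.83 (SE 0.15), and the FDR was 0.0342 without a block, 0.00150 blocking on day and 0.00385 blocking on pairs. At 6 hrs it was -1.05 (SE 0.22), and the FDR was 0.150 without a block, 0.00713 blocking on day and 0.0159 blocking on pairs (0.00713 to 1.00 over the settings tried). At 24 hrs it was -0.61 (SE 0.22), and the FDR was 0.604, or 0.0564 blocking on day. Between the times, 24 less 6 hrs, the effect differed by 0.44 (SE 0.31, FDR = 1.00), which did not pass. Omissions and changed settings were fitted without a block. Among the 12 omissions of 1 array, the call over both times passed only without vehicle 6 hrs replicate 4 or vehicle 24 hrs replicate 2. It was lost without any one of the other 10 arrays (FDR = 0.0693 to 0.108). It was also lost without the day 3 arrays (0.164), with quantile normalization (0.0986) and with no intensity minimum (0.168).

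Itgb1, the beta chain of the collagen and fibronectin receptors, lies on chromosome 8, from 128685654 to 128733579. At 24 hrs its intensities were 2194, 1759 and 2073 with DEX and 2054, 2115 and 2062 in vehicle. At 6 hrs they were 1572, 1427 and 2811 with DEX and 1389, 1351 and 2292 in vehicle. The groups overlapped at both times, with replicate 4 the highest in both treatments at 6 hrs, and the log2 fold change over both times was 0.065 (95% confidence interval -0.36 to 0.49, FDR = 1.00). The other tested Itgb1 probe sets differed over both times by 0.10 and -0.12 on the log2 scale, and the sign at single times differed between probe sets.

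Itgb5, a partner of Itgav in a vitronectin receptor, lies on chromosome 16, from 33829665 to 33949338. Its brightest probe set had 797, 757 and 662 with DEX and 936, 1023 and 1106 in vehicle at 24 hrs. At 6 hrs it had 944, 1023 and 819 with DEX and 803, 939 and 557 in vehicle. DEX was lower in 3 of 3 pairs at 24 hrs and higher in 3 of 3 pairs at 6 hrs, with log2 fold changes of -0.47 at 24 hrs (SE 0.20, FDR = 0.755) and 0.30 at 6 hrs (SE 0.20, FDR = 1.00). The other 3 probe sets of the gene had log2 fold changes of -0.012 to 0.11 at 24 hrs and -0.15 to -0.085 at 6 hrs, and none showed the same signs at both times as the brightest.

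**Figure D3:**
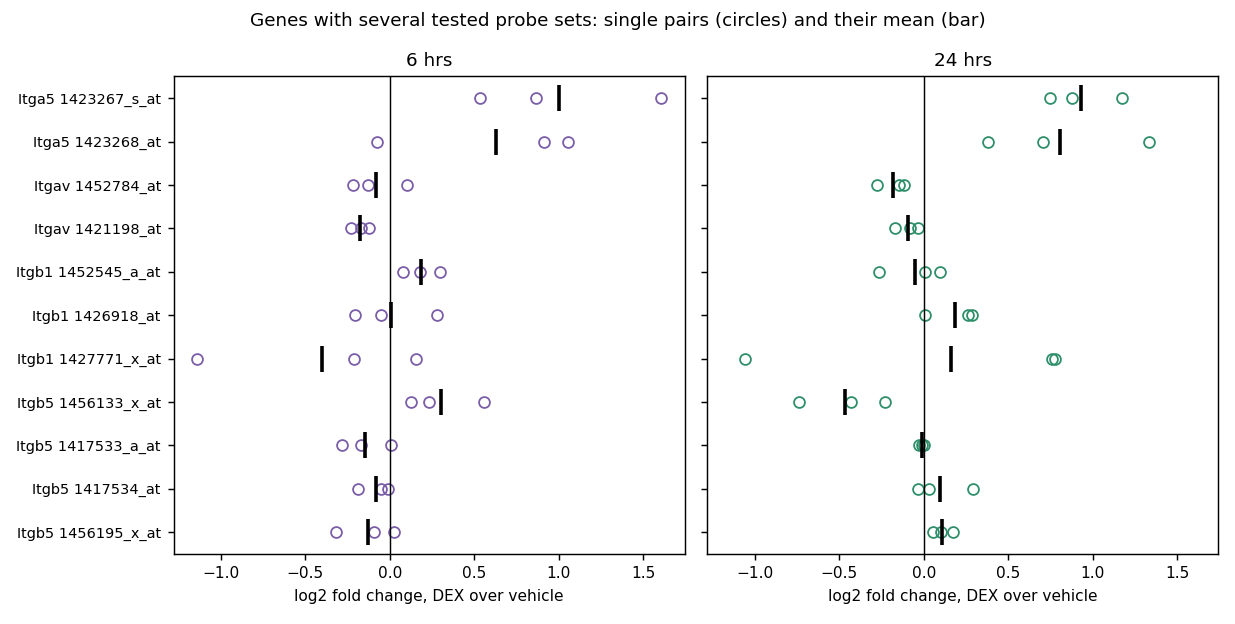
Log2 fold change of DEX over vehicle at 6 and 24 hrs for the tested probe sets of the 4 genes with more than 1, where circles are single pairs and bars their mean. Both Itga5 probe sets lie above 0 on average at each time, whereas the 4 Itgb5 and the 3 Itgb1 probe sets do not share a direction.

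Counted over the 9 genes, 0 passed the test at 6 hrs, where 0.225% of all tested probe sets did, with 2 at an unadjusted p under 0.05, where 3.66% of all had one. Blocking on day, 3 passed, and blocking on pairs, 1 (0.948% and 0.904% of all). At 24 hrs 2 of 9 passed, against 0.287% of all, and both were higher, as were 0.249% of all. The day block gave 3 and the pair block 2 at this time, against 2.18% and 2.15%. Over both times 3 of 9 passed, against 0.747% of all, with 2 higher (0.579%) and 1 lower (0.167%). The day block gave 5 and the pair block 4, against 2.87% and 3.20%. The median log2 fold change of the 9 genes over both times was 0.010, against -0.019 for all tested probe sets, while the median size regardless of sign was 0.76 for the 9 genes and 0.10 for all. In 5 of 9 genes all 6 pairs had the same sign, against 9.00% of all, higher in Itga5, Itga10 and Itgbl1 (4.29%) and lower in Itga2 and Itgb8 (4.71%). DEX and vehicle arrays did not overlap at 6 hrs in 3 of 9 (6.00% of all), with 1 higher (3.04%) and 2 lower (2.96%). At 24 hrs they did not overlap in 7 of 9 (19.4% of all), with 3 higher (8.45%) and 4 lower (10.9%). Of the 4 lower, Itgav and Itgb5 count by their brightest probe set only, since their other tested probe sets overlapped at 24 hrs. Only Itga10 lay higher at both times without overlap (1.05% of all), and Itga2 and Itgb8 lower (0.565% of all). Itga2 enters these counts only because its vehicle means reached the intensity minimum. The genes were named with earlier results of these data known, so these counts describe them and test nothing.

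**Figure D4:**
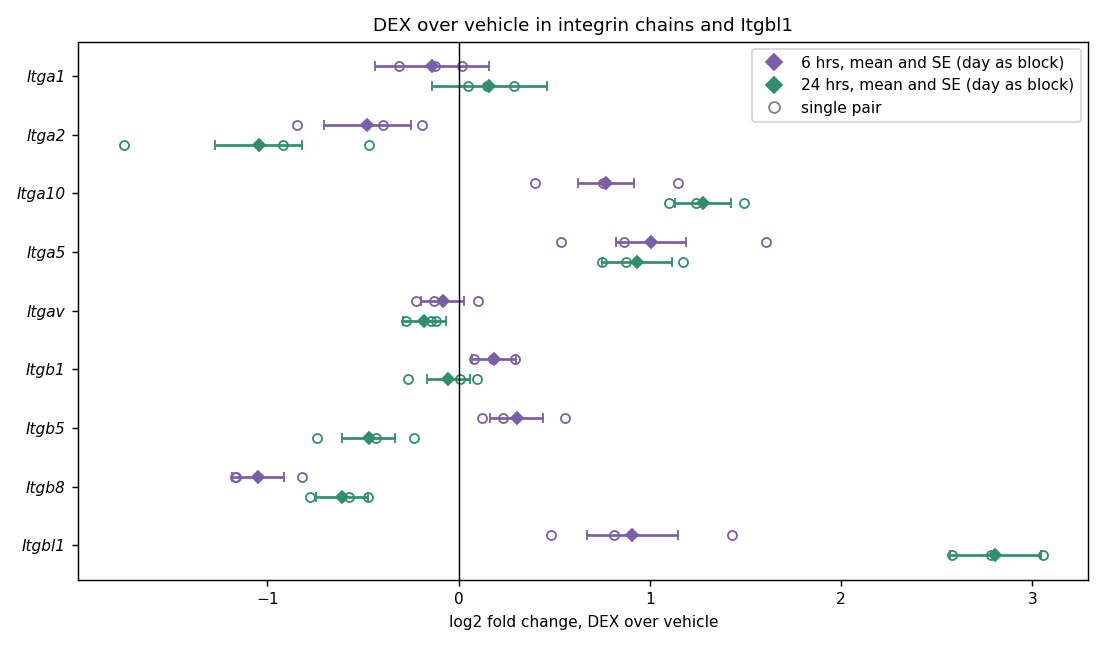
Log2 ratio of DEX over vehicle for 8 integrin chains and Itgbl1 at 6 and 24 hrs; circles are single pairs of arrays, diamonds their mean and bars the SE of the fit that blocks on day (n = 3 pairs each). Itgbl1 at 24 hrs lies at 2.81, Itga10 and Itga5 lie above 0 and Itga2 and Itgb8 below 0 in all 6 pairs.

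In vehicle, 0 of 9 genes passed the test between 24 and 6 hrs (0.00957% of all probe sets did), and hybridization day changes with time in this comparison. This does not show that they were unchanged, and Itgb8 differed by -0.68 on the log2 scale (SE 0.22, FDR = 0.0968). At 24 hrs the summed intensity of the macrophage markers ran from 997 to 1108 with DEX and from 1106 to 1307 in vehicle. At 6 hrs it ran from 1040 to 1286 with DEX and from 1028 to 1578 in vehicle. For the other cell types at 24 hrs the sums with DEX and in vehicle were 816 to 1817 and 943 to 2901 (skeletal muscle), 902 to 1023 and 804 to 1015 (endothelial), and 16631 to 23161 and 18723 to 20545 (tendon and perichondrial fibroblast). The part of these cell types in the integrin values was not tested. Itgam and Itgb2, integrin chains of macrophages and other leukocytes, did not exceed 19.2 and 33.1 on any array. Both are on the macrophage marker list, of which 9 of 18 passed the intensity minimum, so their low values do not show that macrophages were absent. The chondrocyte marker sum was 44858 to 58172 with DEX and 38131 to 55976 in vehicle at 24 hrs. Without a block 0 of 20 chondrocyte markers passed at 6 hrs (0.225% of all) or at 24 hrs (0.287% of all). At 24 hrs the pair block gave 1 of 20 higher and the day block 0. The day block gave 1 of 5 endothelial and 1 of 16 tendon and perichondrial markers higher. It gave 1 of 13 skeletal muscle markers lower. The pair block gave 1 higher and 1 lower in each of the endothelial and tendon lists. Both blocks gave 0 macrophage markers. Of all probe sets, 2.18% passed under the day block and 2.15% under the pair block.

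Of the other integrin chains, 7 of 17 with a probe set were tested and 0 passed in any comparison with DEX. Itga8, a partner of Itgb1 in a nephronectin receptor, averaged 299 with DEX and 178 in vehicle at 24 hrs. It passed only when blocking on pairs, with an FDR of 0.0336 at 24 hrs and 0.0161 over both times, against 1.00 without a block. Under the pair block 2.15% of all probe sets passed at 24 hrs and 3.20% over both times. Among the ligands, the matrix proteins that integrins bind, 30 genes were tested. Without a block 0 passed at 6 hrs, at 24 hrs or over both times, against the unblocked shares of all given above. Blocking on day, 3 of the 30 were higher over both times, where 1.80% of all probe sets were, Postn (periostin, log2 fold change 1.01, FDR = 0.00246), Ibsp (bone sialoprotein, 0.62, FDR = 0.0278) and Col6a2 (a collagen VI chain, 0.42, FDR = 0.0473). Vcam1, a cell surface ligand, was lower under this block (-0.91, FDR = 0.00284), as were 1.07% of all. Blocking on pairs, where 1.90% of all were higher and 1.29% lower, Postn (FDR = 0.00136) and Vcam1 (0.00724) passed, but Ibsp (0.0562) and Col6a2 (0.0807) did not. Itga8 and these 4 ligands are named because of their values. Of 13 tested membrane partners such as tetraspanins and syndecans, 0 passed in any of these comparisons, against the shares of all given above.

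Of 32 tested adaptors and signalling proteins on the inner side of integrins, 2 rose at 6 hrs and over both times and 0 fell. Lims2, a LIM domain protein of the complex with integrin-linked kinase, had a log2 change with DEX of 1.91 at 6 hrs (SE 0.25, FDR = 0.00999) and of 1.60 across the times (SE 0.17, FDR = 0.00128). Tns1, a tensin that ties beta chains to actin, had 1.498 at 6 hrs (SE 0.25, FDR = 0.0436) and 1.30 across the times (SE 0.18, FDR = 0.00561). At 24 hrs, where 0 of 32 passed, the values were 1.29 for Lims2 (FDR = 0.0729) and 1.11 for Tns1 (FDR = 0.158), and both passed when blocking on day (FDR = 0.0152 and 0.00975) and on pairs (FDR = 0.0199 and 0.0280). Kank1, an adaptor at the rim of adhesions, named because of its value, also passed at 24 hrs blocking on day (log2 fold change 0.62, FDR = 0.0377) but not on pairs (0.0638), which made 3 of 32 higher under the day block, against 1.48% of all, and 2 under the pair block, against 1.45%. Of all tested probe sets, 0.196% rose at 6 hrs and 0.579% over both times.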

How the data were processed

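RNA of 12 cultures was measured on arrays with 45101 probe sets. The authors made the deposited intensity values with GC-RMA in GeneSpring GX, on a linear scale. GCRMA is named in the submitters' processing notes, but its version is not given in the sources used here. Precision is limited by the number of arrays.

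Intensities entered as log2 values with no pseudocount. Probe sets whose mean reached 50 in any of the 4 groups were tested in limma 3.58.1 with R 4.3.3 (lmFit, eBayes, a mean for each group, no block), at an adjusted p threshold of 0.05, called FDR in the text. Alternatives were no filter, a filter at 100, a pseudocount of 16, quantile normalization, a block for hybridization day or for replicate pair, leaving out arrays, fits of 1 time only, values within days, a Welch test of DEX against vehicle arrays and other probe sets. Scripts were tested on simulated data. Figures were drawn with matplotlib 3.10.9 in Python 3.11.15.

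Deviations from group means were correlated between DEX and vehicle arrays of equal replicate number. The correlations were 0.681, 0.632 and 0.863 (6 hrs, replicates 1, 2 and 4) and 0.158, 0.301 and 0.220 (24 hrs). The numbers were taken as pairs, but arrays of unequal number were not correlated, so these values cannot show that the numbers pair the arrays. Paired arrays also shared a hybridization day, read from the array files.

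The platform annotation gave 1 symbol for 34958 probe sets, several for 932 and none for 9211, and the last 2 kinds were left unnamed. The 10 genes and the lists of related genes and markers were chosen with earlier results of these data known. Named genes are the 10, up to 4 passing genes per list and the 5 genes most like Itgbl1. Promoter sequences and gene positions are RefSeq's, and the place of the probes within the genes was not examined.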

Additional observations from a re-analysis of the deposited data

Results flagged for a closer look

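The brightest Itgb5 probe set stood out because every pair moved one way at 6 hrs and the other way at 24 hrs. The difference of its DEX effects, 24 less 6 hrs, was -0.77 on the log2 scale (SE 0.28, unadjusted p = 0.0203, adjusted p = 1.00 in limma), which did not pass. The adjusted p was 0.328 blocking on day and 0.282 blocking on pairs (0.243 to 1.00 over the settings tried). The same difference was 0.14, 0.18 and 0.24 for the other 3 probe sets of the gene, all of the opposite sign (adjusted p = 1.00 each). Whether they differ from the brightest was not tested.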

How the results depend on the processing

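With 3 arrays per group, precision is limited by their number and, for Itga2, Itgbl1 and Itgb8, by signals near the minimum of 50. The count of genes that passed was 3 blocking on day and 1 with the replicate block at 6 hrs, 5 blocking on day over both times, and 0 at 24 hrs and 1 over both times with no filter. It was 0 at both with a Welch test, under which the adjusted p of the Itga10, Itgbl1 and Itgb8 calls was 0.290 to 0.604. Over both times this Welch test pooled the arrays of 6 and 24 hrs, so differences between times entered its error. It does not repeat the paper's Welch ANOVA. Leaving out single arrays gave 0 to 1 genes at 6 hrs, 0 to 2 at 24 hrs, 1 to 3 over both times and 0 to 2 for time in vehicle, the last passing only without vehicle 6 hrs replicate 4. The replicate block is printed beside each result whose call it changed and changed no other call of these genes.

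The directions that turned belonged to comparisons in which the gene did not pass, and the cause was not tested. Other probe sets gave -0.40 (6 hrs) and 0.19 and 0.16 (24 hrs) for Itgb1, and -0.15, -0.085 and -0.13 (6 hrs) and 0.096 and 0.11 (24 hrs) for Itgb5. The Itga5 effect differed between 24 and 6 hrs by -0.071, but 0.11 with a pseudocount of 16 and 0.066 without the day 3 arrays, and that omission, chosen after the data were seen, gave -0.075 for Itga1 and 0.043 for Itgb5 over both times. Itgbl1 in vehicle, 24 hrs minus 6 hrs, was 0.066, but -0.28 with quantile normalization. Leaving out single arrays gave for Itga5 -0.48 to 2.56 at 6 hrs and -1.62 to 1.41 for the difference between times, for Itgav -0.16 to 0.032 at 6 hrs, and for Itgb1 -0.12 to 0.43 at 6 hrs, -0.12 to 0.038 at 24 hrs, -0.087 to 0.19 over both and -0.49 to 0.065 between times. For Itga1 it gave -0.19 to 0.45 at 24 hrs, -0.17 to 0.16 over both, -0.052 to 0.59 between times and -0.41 to 0.16 for time in vehicle, and for Itgbl1 -0.46 to 0.43 for time in vehicle.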
